A study of Rattus norvegicus with 12 samples.

Results

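Potassium channel genes were followed on the rat arrays as every probe whose gene name begins with Kcn, a family letter or letters and a number. The rule used gene names only and found 133 probes for 92 genes among the 30367 probes of the array. The cultures were neuron-enriched cells from the cerebella of 1-day-old Sprague-Dawley rats, grown for 16 days in vitro. From day 2 they received 1 µM acetamiprid (ACE), a neonicotinoid insecticide that acts on nicotinic acetylcholine receptors, or the solvent DMSO at 0.001% as the control, and both groups had 1% fetal bovine serum until day 8. There were 6 control and 6 ACE arrays, 1 of each from every culture experiment, and the 2 cultures of an experiment came from 1 lot of cells pooled from the pups of 1 litter. They are called a pair below, and the replicate number names the pair.

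Potassium channels let potassium leave the cell along its gradient. Voltage-gated pore subunits end the action potential and set firing rate, silent subunits join some of these pores and change how they open, and auxiliary subunits alter trafficking and gating. Calcium- and sodium-activated channels follow bursts of firing, inward rectifiers and two-pore channels hold the resting potential, and in glia inward rectifiers take up the potassium that active neurons release. In the cerebellum, granule cells and Purkinje cells depend on such channels for their resting potential and for fast, repeated firing.

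The signal at the 75th percentile of an array was 1803 to 4384 fluorescence units, and 75.4 to 91.0% of spots were well above background. Pairs 1, 2 and 3 were scanned apart and pairs 4, 5 and 6 together, and on each slide the control lay at place 1 and ACE at place 3, so place and exposure cannot be told apart. All 8 genes of the astrocyte, oligodendrocyte, microglia and granule cell marker lists and all 7 Purkinje cell markers were well above background on all 12 arrays, so the arrays held RNA of neurons and of glia. In such mixed cultures, fewer cells of a type and less RNA per cell cannot be told apart. The mean log2 signal of 12 skeletal muscle genes was 11.31 in control 1, 11.80 in control 2, 10.55 in ACE 1 and 9.29 in control 6, and 7.48 to 7.95 on the other 8 arrays.

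Of the 133 potassium channel probes, 107, for 79 genes, passed the filter on low signals and were tested, with 23796 probes in all. For 59 of the 92 genes at least 1 probe was well above background on all 12 arrays, for 29 on some arrays, and for 4 (Kcnh8, Kcnj15, Kcnk15 and Kcnk18) on none. The sequences of probe pairs that gave different answers for a gene are shown first, because several results below rest on 1 of several probes. A probe is a 60-base oligonucleotide on the array designed to capture labelled RNA of its gene, and coordinates are those of the files, on the rat build rn4. No annotation of that build was used here, so exons are not named.

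Kcng1 encodes a silent subunit, and 4 probes carried its name. For the pair that held only A and G, 60 of 60 bases, the first 30 bases are shown, with the run of the repeated unit GGA in capitals, and the others are shown whole. On the whole array 22 probes held only A and G, and all 22 were well above background on all 12 arrays. Whether the 2 that carry the name Kcng1 capture other RNA beside it was not tested.
Kcng1 A_64_P104301: aggaagaagaagaagaAGGAGGAGGAGGAG
Kcng1 A_64_P124781: agaagaagaagaagaaGAGGAGGAGGAGGA
Kcng1 A_64_P097372: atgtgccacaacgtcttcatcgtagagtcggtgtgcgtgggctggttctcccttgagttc
Kcng1 A_64_P097376: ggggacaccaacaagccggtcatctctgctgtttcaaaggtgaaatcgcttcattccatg
The file placed A_64_P104301 at chr3:159427597-159427617, a span of 21 bases, and A_64_P124781 at chr3:159427597-159427643, a span of 47 bases. The whole 60 bases of A_64_P097372 were placed at chr3:159429234-159429293 and those of A_64_P097376 at chr3:159427825-159427884, all on the minus strand.

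Kcnmb2 encodes a β subunit of the large-conductance calcium-activated (BK) channel and Kcnq1 a voltage-gated pore subunit. Each had 1 probe that was lower in ACE in every pair and 1 that was not, and they are shown so that the stretches measured can be told apart.
Kcnmb2 A_64_P057631: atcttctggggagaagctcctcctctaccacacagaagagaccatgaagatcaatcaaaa
Kcnmb2 A_64_P154243: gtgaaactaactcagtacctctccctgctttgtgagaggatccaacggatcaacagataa
Kcnq1 A_64_P094313: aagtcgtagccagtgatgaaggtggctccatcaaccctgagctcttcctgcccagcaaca
Kcnq1 A_42_P787920 (first 30 bases): gttaagggcatcgcggtttctcccaggatc
The Kcnmb2 probes lie at chr2:118382241-118382300 and chr2:118401316-118401375 and the Kcnq1 probes at chr1:203802631-203802690 and chr1:203803528-203803587, all on the plus strand.

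The first comparison asked whether exposure changed the RNA of potassium channels. Errors after ± are the SE of the fitted difference unless marked as SD. No potassium channel probe passed limma's paired test after Benjamini-Hochberg adjustment (0 of 107, with 0 of all 23796 probes), and the lowest adjusted p among them was 0.143. At an unadjusted p under 0.05, limma called 12 of the 107 probes (11.2%), against 16.6% of all probes tested. Of these 12, 2 were higher in ACE (1.87% of the potassium channel probes, against 6.90% of all probes) and 10 were lower (9.35%, against 9.73%). The same direction in all 6 pairs, which is what the exact two-sided signed-rank test needs for its smallest p of 0.0313, was found for 4 potassium channel probes (3.74%, against 11.6% of all probes). All 4 were lower in ACE (6.86% of all probes were lower in every pair, and 4.72% higher). In 4 probes, all lower, the mean changed by 1.5-fold or more (3.74%, against 1.72% of all probes). These 4, of Kcnj13, Kcng3, Kcnn1 and Kcnmb3, were well above background on 7 or 8 of 12 arrays, and with normexp background correction they differed by -0.23, -0.21, -0.14 and -0.20, so that 0 of the 4 reached 1.5-fold there. The shares of channel probes lay below those of all probes by p-value and by direction and above them by fold change, and the differences between the shares were not tested.

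The direction of these calls depended on the scaling. With each array shifted to its 75th percentile in place of quantile normalisation, 0 probes were called higher and 17 lower. In that run 17.7% of all probes were called, and 65.2% of all probes had a difference below 0. With normexp background correction 6 were higher and 6 lower, where 18.1% of all probes were called and 52.6% had a difference below 0. The split of calls by direction over all probes was counted only for quantile normalisation with all 6 pairs. Without pairing, limma called 0 of 107 potassium channel probes at the unadjusted threshold and 81 of all 23796. Leaving out pairs 1, 2 and 6, whose arrays included the 4 with high muscle signal, left 4 calls, all lower and 3 of them among the 12, with 6.77% of all probes called. For no potassium channel probe did the 6 control values and the 6 ACE values fall into ranges that did not overlap. How many of all tested probes did so was not counted.

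**Figure D1:**
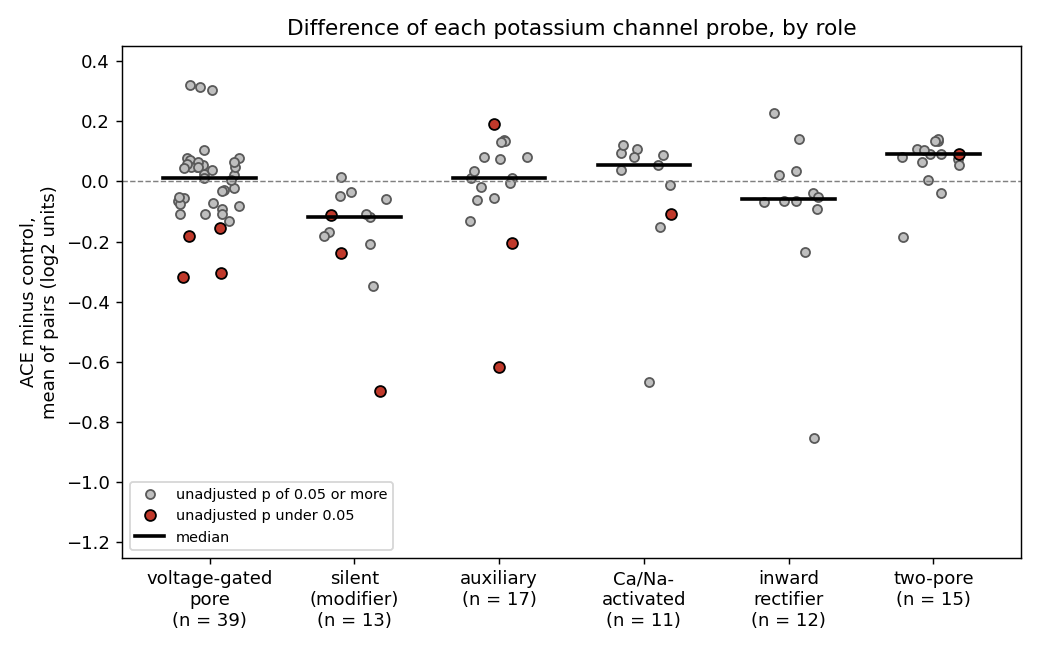
Mean difference of ACE minus control over the pairs (y axis, log2 units) for each of the 107 tested potassium channel probes, grouped by role, with the number of probes under each role. Red points had an unadjusted limma p under 0.05 and black lines are medians; 12 of 13 silent-subunit probes lie below 0 and 13 of 15 two-pore probes above it.

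By role, the median difference was small everywhere. It was 0.0109 log2 units over all 107 probes and -0.00499 over all 23796 probes tested (-0.06 and -0.03 under the 75th percentile shift). Among the silent subunits 12 of 13 probes had a difference below 0, against 52.2% of all probes, and their median was -0.12. That median was below 0 in 6 of 6 pairs, from -0.19 to -0.04. It was -0.24 under the 75th percentile shift, where 13 of 13 were below 0, against 65.2% of all probes and 74 of the 107 channel probes, and -0.06 with normexp correction, where 10 of 13 were, against 52.6% of all probes. The two-pore channels lay on the other side: 13 of 15 probes had a difference above 0, with a median of 0.09, and the median was above 0 in 5 of 6 pairs. With the 75th percentile shift 10 of 15 two-pore probes were above 0, and with normexp correction 12 of 15. The other roles were mixed, with medians of 0.01 for voltage-gated pore subunits (21 of 39 probes above 0), 0.01 for auxiliary subunits (10 of 17), 0.05 for calcium- and sodium-activated pores (7 of 11) and -0.06 for inward rectifiers (4 of 12). With the 75th percentile shift these medians were -0.05 (10 of 39 above 0), -0.03 (6 of 17), -0.02 (4 of 11) and -0.11 (3 of 12), so that the first 3 changed sign. These counts describe the roles and were not tested.

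**Figure D2:**
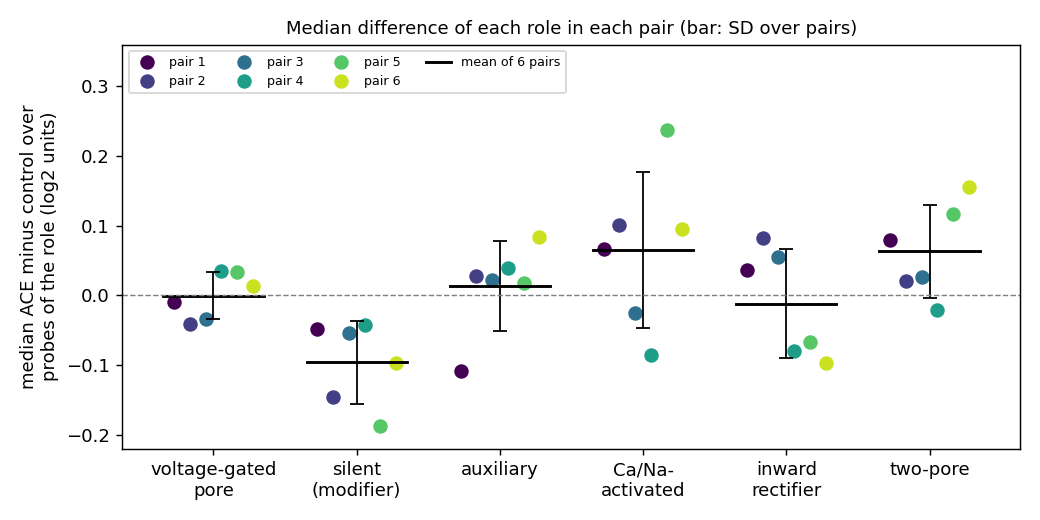
Median difference of ACE minus control over the probes of each role (y axis, log2 units) in each of the 6 pairs (coloured points), with the mean of the 6 pairs (line) and its SD (bar). The silent subunits lie below 0 in all 6 pairs, and the two-pore channels lie above 0 in every pair but pair 4.

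Among the voltage-gated pore subunits, 39 probes were tested, 0 were called higher and 4 lower (6.90% and 9.73% of all probes). Kcnq1, which forms slow potassium currents in heart and in ion-transporting epithelia, had the lowest p of all the potassium channel probes. Its probe A_64_P094313 measured 7.78, 8.40 and 9.84 (lowest, median and highest log2 signal) in control and 7.60, 8.18 and 9.79 in ACE. Every ACE culture lay below its own control, by 0.05 to 0.25, while the ranges of the groups overlapped almost wholly. The difference was -0.18 ± 0.03 (SE over 6 pairs, adjusted p = 0.143). With the pair as a random block in place of a fixed one, this probe no longer passed the unadjusted threshold. The second Kcnq1 probe, A_42_P787920, differed by -0.06 (adjusted p = 0.693) and was lower in 3 of 6 pairs.

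Kcna7, a Shaker-type subunit known from heart and skeletal muscle, was also lower in every pair. Probe A_64_P000876, at chr1:95883455-95883514 on the plus strand, gave 4.52, 5.09 and 5.89 in control and 4.40, 4.74 and 5.62 in ACE. The difference was -0.31 ± 0.07 (adjusted p = 0.160), from -0.66 in pair 6 to -0.12 in pair 5. Beside it, the 12 muscle genes were lower in ACE by 3.84 in pair 2, 1.81 in pair 6 and 0.77 in pair 1 and differed by -0.29 to 0.03 in pairs 3, 4 and 5, and Kcna7 in the latter 3 pairs, chosen after the muscle values were seen, differed by -0.24 and passed the unadjusted threshold. Within pairs 4, 5 and 6, scanned together, it differed by -0.37 and did not pass it. The part of muscle cells in the Kcna7 values was not tested. The normexp correction gave a Kcna7 difference of -0.07, and the call did not hold there. A second Kcna7 probe did not pass the filter.

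Kcnh3, an ether-à-go-go-like subunit of forebrain neurons, was the only gene with 2 probes among the calls. Probe A_64_P005922 ranged from 7.91 to 9.16 in control (median 8.49) and from 7.80 to 9.18 in ACE (median 8.28), with a difference of -0.15 ± 0.04 (adjusted p = 0.200). Probe A_64_P082668 ranged from 3.95 to 4.78 in control (median 4.32) and from 3.49 to 4.68 in ACE (median 3.84), with a difference of -0.32 ± 0.11 (adjusted p = 0.235). Each was lower in 5 of 6 pairs, with the exception in pair 1 for the first probe and in pair 2 for the second. The second probe was well above background on 8 of 12 arrays and differed by -0.08 with normexp correction, and its call was lost when pair 3, 4 or 5 was left out.

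The 3 highest differences of the set were also in this role, and none passed the unadjusted threshold. Kcnd3, an A-type subunit, measured 3.90, 4.80 and 5.33 in control and 4.60, 4.83 and 5.84 in ACE with probe A_64_P028390, a difference of 0.32 ± 0.17 (adjusted p = 0.401). Its other 3 probes differed by -0.13 to 0.08, so the value belonged to 1 of 4 probes. Kcna4, another A-type subunit, measured 4.01, 4.72 and 5.84 in control and 4.56, 5.09 and 5.76 in ACE (0.31 ± 0.14, adjusted p = 0.318, higher in 5 of 6 pairs). Kcnc1, the Kv3 subunit of fast-firing neurons including granule cells, measured 4.30, 6.38 and 6.78 in control and 5.19, 6.49 and 7.17 in ACE (0.30 ± 0.17, adjusted p = 0.415, higher in 5 of 6 pairs). The Kcnd3 probe was well above background on 9 of 12 arrays, the Kcna4 probe on 8 and the Kcnc1 probe on all 12. With normexp correction the differences were 0.12, 0.09 and 0.15, and Kcnd3 was 0.20 without pair 4, Kcna4 to 0.19 without pair 5 and Kcnc1 to 0.19 without pair 1, while Kcnc1 was 0.46 without pair 6. The unadjusted threshold was passed by Kcnd3 without pair 2 or 5, by Kcna4 without pair 3 and with normexp correction, by Kcnc1 without pair 6, and by Kcnd3 and Kcna4 with the pair as a random block.

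The axonal and dendritic channels best known from cerebellar neurons differed little. Kcna1, which sits with Kcna2 on axons and basket cell terminals, measured 11.39, 11.67 and 12.11 in control and 11.35, 11.74 and 12.23 in ACE (difference 0.06 ± 0.05). Kcna2 measured 8.89, 9.30 and 9.86 in control and 9.04, 9.33 and 9.87 in ACE (0.07 ± 0.06). In each of these genes the groups covered nearly the same range. Kcnd2, the A-type pore of granule cells, measured 9.32, 9.57 and 10.28 in control and 9.28, 9.66 and 10.17 in ACE (0.05 ± 0.04). The M-current subunit Kcnq3 measured 8.78, 9.72 and 9.98 in control and 8.76, 9.71 and 10.09 in ACE (0.04 ± 0.03). Adjusted p-values of these 4 genes lay between 0.549 and 0.623. Without 1 pair the differences ranged from 0.03 to 0.09 for Kcna1 and from 0.03 to 0.11 for Kcna2. They ranged from 0.01 to 0.08 for Kcnd2 and from 0.03 to 0.06 for Kcnq3. Kcnq5 did not pass the filter: its best probe was well above background on 5 of 12 arrays.

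Silent subunits contributed 3 of the 10 lower calls, from 13 probes (9.73% of all probes were called lower). Kcnf1 (probe A_64_P116501) measured 2.28, 3.83 and 4.24 in control and 2.23, 3.69 and 4.27 in ACE, with a difference of -0.11 ± 0.04 (adjusted p = 0.252), but was well above background on only 2 of 12 arrays. Kcng3 (probe A_64_P097380) measured 3.01, 4.24 and 5.07 in control and 2.33, 3.64 and 4.32 in ACE, a difference of -0.70 ± 0.28 (adjusted p = 0.294) that came mainly from pairs 2, 3 and 5 (-1.70, -1.50 and -0.92), with the probe well above background on 7 arrays. With normexp correction these differences were -0.00215 for Kcnf1 and -0.21 for Kcng3. The Kcnf1 call was lost with the pair as a random block and when pair 2, 4, 5 or 6 was left out, and the Kcng3 call when pair 2, 3 or 5 was. The Kcng1 call came from the repeat probe A_64_P104301 shown above, which measured 13.03, 13.99 and 15.15 in control and 13.05, 13.78 and 14.41 in ACE (-0.24 ± 0.10, adjusted p = 0.289). The call was lost with the pair as a random block and when pair 1, 2, 4 or 6 was left out, and without pair 5 the difference was -0.14. It was also lost with the 75th percentile shift (-0.24), with normexp correction (-0.20) and within pairs 4, 5 and 6 (-0.36). The other repeat probe differed by -0.18 (adjusted p = 0.393), and the probes placed over all 60 bases, A_64_P097372 and A_64_P097376, by -0.17 (adjusted p = 0.503) and -0.03 (adjusted p = 0.775). Without both repeat probes, 10 of 11 silent-subunit probes were below 0, with a median of -0.11, and 2 were called.

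**Figure D3:**
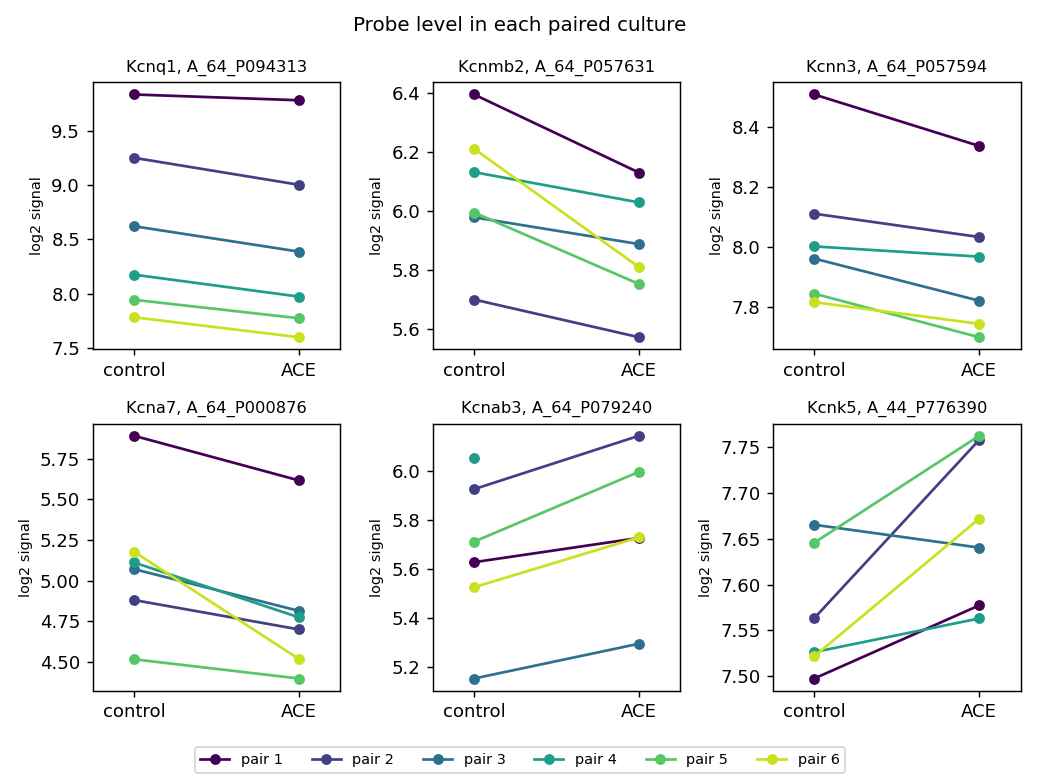
Log2 signal (y axes, a separate range in each panel) of 6 probes in the control and ACE culture of each pair, joined by lines, with 1 colour per pair. Kcnq1, Kcnmb2, Kcnn3 and Kcna7 were lower in ACE in 6 of 6 pairs, Kcnab3 was higher in the 5 pairs measured and Kcnk5 in 5 of 6, and the distance between pairs exceeds the slope of the lines except for Kcnk5.

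Auxiliary subunits gave 1 higher and 2 lower calls among 17 probes (6.90% and 9.73% of all probes). The Kcnmb2 probe A_64_P057631 measured 5.70, 6.06 and 6.39 in control and 5.57, 5.85 and 6.13 in ACE, and was lower in every pair by 0.09 to 0.40 (difference -0.20 ± 0.05, adjusted p = 0.161). The Kcnmb2 probe A_64_P154243, which covers another stretch of the gene, measured 5.43, 5.66 and 6.04 in control and 5.56, 5.77 and 6.06 in ACE and was higher in 4 of 6 pairs (0.08 ± 0.08, adjusted p = 0.643). The probes of this gene thus differed in direction. Kcnmb3, a further BK β subunit, was measured in 5 pairs because an ACE spot of pair 5 was marked as an outlier, and ranged from 3.63 to 5.98 in control and from 3.11 to 5.71 in ACE (-0.62 ± 0.22, adjusted p = 0.260), with 7 arrays well above background. With the deposited values, from which outlier spots were not left out here, Kcnmb3 differed by 0.19, in the other direction. With normexp correction it differed by -0.20 and without pair 3 by -0.41, and the call was lost when pair 3, 4 or 6 was left out.

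Kcnab3, a cytoplasmic β subunit of Shaker-type channels, was the auxiliary subunit called higher. It measured 5.15, 5.67 and 6.06 in control and 5.29, 5.73 and 6.15 in ACE, where the spot of pair 4 was marked as an outlier, and it was higher in 5 of 5 pairs (0.19 ± 0.04, adjusted p = 0.147). With the 75th percentile shift the difference was 0.05. With the deposited values, from which outlier spots were not left out here, it was 0.52, and the call was lost in both. The BK β subunit of neurons, Kcnmb4, measured 10.18, 10.63 and 11.01 in control and 10.16, 10.62 and 11.08 in ACE (-0.01 ± 0.02, adjusted p = 0.909). Kcnip4, a calcium sensor that binds A-type pores, measured 2.92, 5.18 and 5.69 in control and 3.02, 5.48 and 5.75 in ACE (0.13 ± 0.07, adjusted p = 0.408), and the difference was 0.07 without pair 2 and 0.01 with the 75th percentile shift.

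Calcium- and sodium-activated pores gave 1 call, lower in ACE, among 11 probes (9.73% of all probes were called lower). Kcnn3, a small-conductance (SK) channel, measured 7.82, 7.98 and 8.51 in control and 7.70, 7.90 and 8.34 in ACE with probe A_64_P057594 at chr2:181860388-181860447 on the plus strand. Its differences were small and all downward, from -0.17 to -0.03 (mean -0.11 ± 0.03, adjusted p = 0.182). The call was lost with normexp correction, where the difference was -0.07, and within pairs 4, 5 and 6, where it was -0.08. Kcnn2, the SK channel of Purkinje cells, measured 7.05, 8.09 and 8.77 in control and 7.35, 8.03 and 8.65 in ACE (-0.01 ± 0.07). Kcnn1 had 1 of the 3 lowest differences of the set, -0.67 ± 0.39 (adjusted p = 0.432) with probe A_43_P12018, which ranged from 3.45 to 5.10 in control (median 4.25) and from 1.85 to 4.84 in ACE (median 3.80) and was lower in 3 of 6 pairs. Without pair 5 the difference was -0.44 and without pair 6 -0.39, and with the pair as a random block it passed the unadjusted threshold. Its other probe differed by 0.12 in the opposite direction.

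The BK pore Kcnma1, which shapes the action potentials of Purkinje cells, had 3 probes. Probe A_64_P105078, which the file does not place on the genome, measured 6.86, 7.30 and 9.21 in control and 6.76, 7.05 and 9.28 in ACE (-0.15 ± 0.10, adjusted p = 0.472), and the difference was -0.09 without pair 2 and -0.08 without pair 5. The other probes differed by 0.04 and 0.05. The sodium-activated Kcnt1 measured 5.97, 6.41 and 6.85 in control and 6.22, 6.52 and 6.83 in ACE (0.09 ± 0.08, adjusted p = 0.573). Without 1 pair the Kcnt1 difference was 0.05 (without pair 5) to 0.16 (without pair 4, where it passed the unadjusted threshold), and with the 75th percentile shift it was 0.00510.

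Of 12 inward rectifier probes, 0 were called in either direction (16.6% of all probes were called). Kcnj3, Kcnj6 and Kcnj9 encode the G-protein-gated channels through which transmitters quiet neurons. Kcnj3 measured 8.47, 8.91 and 9.61 in control and 8.38, 8.89 and 9.71 in ACE (-0.06 ± 0.05). Kcnj6 measured 1.83, 4.11 and 4.70 in control and 2.52, 4.11 and 4.75 in ACE (0.23 ± 0.13), with 8 of 12 arrays well above background. Kcnj9 measured 5.08, 5.64 and 6.35 in control and 5.10, 5.43 and 6.40 in ACE (-0.09 ± 0.08). For each of these 3 genes the groups overlapped over most of their range. Without 1 pair Kcnj6 ranged from 0.13 (without pair 1) to 0.33 (without pair 6, where it passed the unadjusted threshold), and it was 0.06 with normexp correction and -0.02 within pairs 4, 5 and 6. Kcnj9 ranged from -0.14 (without pair 5) to -0.04 (without pair 3), and passed the unadjusted threshold with the 75th percentile shift (-0.21). Kcnj3 was -0.03 without pair 1. Kcnj10, the main potassium uptake channel of astrocytes, measured 5.14, 5.55 and 6.16 in control and 5.29, 5.77 and 6.26 in ACE (0.14 ± 0.09, adjusted p = 0.477, higher in 4 of 6 pairs). The Kcnj10 difference was 0.08 without pair 3, 0.08 without pair 4 and 0.04 with the 75th percentile shift. The mean of the 8 astrocyte markers was lower in ACE in 6 of 6 pairs, by 0.05 on average. Of 15 astrocyte probes tested, 1 was called lower and 0 higher, against 9.73% and 6.90% of all probes. The marker Slc1a2 was higher in pairs 1, 3, 4 and 6 (0.06, 0.04, 0.24 and 0.13) and lower in pairs 2 and 5 (-0.11 in each).

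Kcnj13, an inward rectifier of the choroid plexus and other epithelia, had the lowest mean difference of the set and the widest spread between pairs. It measured 2.48, 4.62 and 6.20 in control and 2.00, 4.02 and 5.04 in ACE (-0.85 ± 0.66, adjusted p = 0.542), with 8 of 12 arrays well above background. The pair differences ran from 1.04 in pair 1 to -4.20 in pair 6, and without pair 6 the mean was -0.18. Choroid plexus genes were looked up after these values were seen. Ttr, the transthyretin gene of that epithelium, differed by 3.06, 1.02, -1.34, -3.46, -4.89 and -3.80 in pairs 1 to 6, and Kcnj13 by 1.04, -0.01, -0.97, 0.34, -1.30 and -4.20. Aqp1 differed by -0.49, -0.07, -0.48, 0.27, -0.07 and -0.28 in pairs 1 to 6 and Folr1 by -0.09, -0.22, -0.16, 0.04, -0.33 and -0.34. Both had the sign of Kcnj13 in pairs 2 to 6 and the other sign in pair 1, and their differences were smaller in size than those of Kcnj13 in each pair but pair 2. Otx2 differed by -0.23, 0.33, 0.00401, 0.27, -0.06 and 0.08, and Clic6 by -0.25, -0.03, 0.35, 2.87, -0.49 and 1.78. Of the 6 choroid plexus genes, Ttr, Folr1, Otx2 and Aqp1 were well above background on all 12 arrays, Clic6 on 5 and Kl on 3, and the mean of the 5 genes measured on every array was 8.53 to 9.87 in control and 8.18 to 9.67 in ACE. Kcne2, an auxiliary subunit of the same epithelium, differed by 0.01 (adjusted p = 0.927). The part of choroid plexus cells in the Kcnj13 values was not tested.

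**Figure D4:**
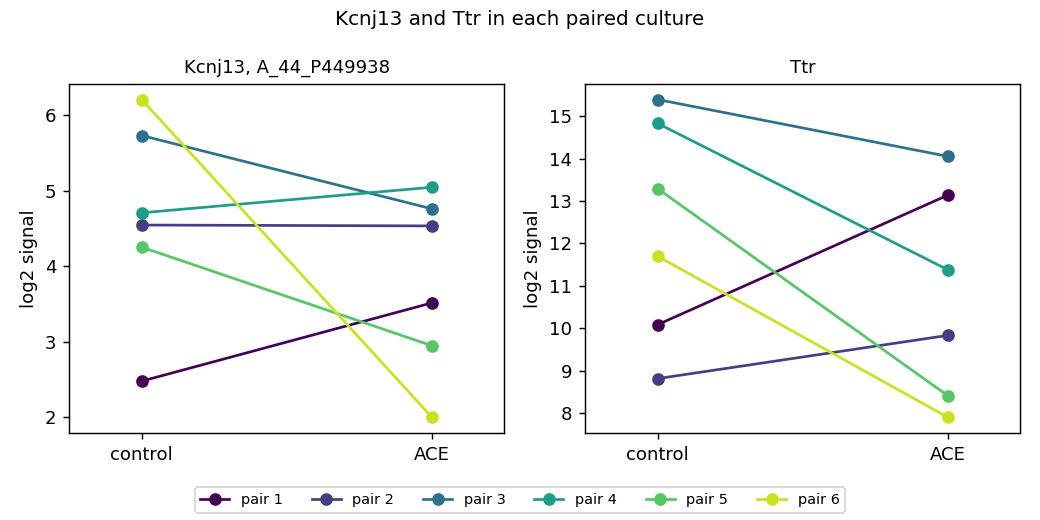
Log2 signal (y axes) of Kcnj13 (left) and the choroid plexus gene Ttr (right) in the control and ACE culture of each pair, joined by lines with 1 colour per pair. Both were higher in ACE in pair 1 and lower in pairs 3, 5 and 6, and they parted in pairs 2 and 4 (Kcnj13 -0.01 and 0.34, Ttr 1.02 and -3.46). In pair 6 Kcnj13 went from 6.20 to 2.00 and Ttr from 11.70 to 7.90.

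Two-pore channels gave 1 call, higher in ACE, among 15 probes (6.90% of all probes were called higher). Kcnk5, an acid-sensitive member, measured 7.50, 7.54 and 7.67 in control and 7.56, 7.66 and 7.76 in ACE and was higher in 5 of 6 pairs (0.09 ± 0.04, adjusted p = 0.269). It varied little between cultures, with an SD of 0.07 between the means of the pairs. The call was lost with the 75th percentile shift (difference 0.03) and when pair 1, 2, 5 or 6 was left out. Kcnk1 measured 10.46, 11.34 and 11.72 in control and 10.57, 11.34 and 11.92 in ACE (0.09 ± 0.05). Kcnk3, a TASK channel of the granule cell leak current, measured 7.63, 8.01 and 8.61 in control and 7.66, 8.20 and 8.52 in ACE (0.06 ± 0.05). Both were higher in 5 of 6 pairs, and neither passed the unadjusted threshold (adjusted p = 0.399 and adjusted p = 0.547), though Kcnk1 did without pair 4 (0.14) and with normexp correction (0.13). Kcnk3 differed by 0.02 without pair 4 and by 0.02 with the 75th percentile shift. Kcnk9, the partner of Kcnk3 in that current, was well above background on 2 of 12 arrays and did not pass the filter.

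The levels of potassium channel probes varied between pairs as well as within them. The SD between the pair means had a median of 0.41 log2 units over the 107 probes (0.29 over all probes tested), and the SD of the differences within pairs a median of 0.19 (0.13 over all probes). The mean ACE difference, in which pairs of opposite sign cancel, had a median size of 0.08 (0.06 over all probes). The SD between pairs exceeded that size for 104 of the 107 probes, and for 22942 of all 23796. Each pair lay on a slide of its own, so litter and slide cannot be told apart. The cases named here were chosen after their values were seen. Kcnip2, a calcium sensor of A-type channels, stood at 7.96 and 7.49 in the control and ACE cultures of pair 3 and at 4.38 to 5.28 in all the others. Pair 3 alone was read with another version of the array design file, with the same probe sequences, and was scanned apart. The part of these in the Kcnip2 values was not tested. Kcnj8, an ATP-sensitive inward rectifier of vessel-associated cells, ran from 6.34 in ACE 6 to 9.22 in ACE 3, and its pair differences were only -0.28 to 0.22.

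Pair 1 stood apart for several channels of neurons, in the same direction in both its cultures. Kcnip4 was at 2.92 and 3.02 there and at 4.98 to 5.75 in the other 5 pairs. Kcnc1 was at 4.30 and 5.19 in pair 1 and at 5.85 to 7.17 elsewhere, and Kcnj6 at 1.83 and 2.52 against 3.38 to 4.75. Kcnma1 probe A_64_P105078 was instead highest there, at 9.21 and 9.28 against 6.76 to 7.78. The mean of the 8 granule cell markers was also lowest on the arrays of pair 1, at 7.79 and 8.09 against 8.25 to 8.82 on the other 10. That mean was low through Cbln1 (8.12 and 8.77), Gabra6 (4.80 and 5.65) and Neurod1 (7.11 and 7.81), whereas Zic2 (8.43 and 8.51) and Cbln3 (6.97 and 7.02) were highest in pair 1. Pair 1 was also read with an older version of the image analysis software (Feature Extraction), and both its cultures held high muscle signal. The part of these in the pair 1 values was not tested.

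**Figure D5:**
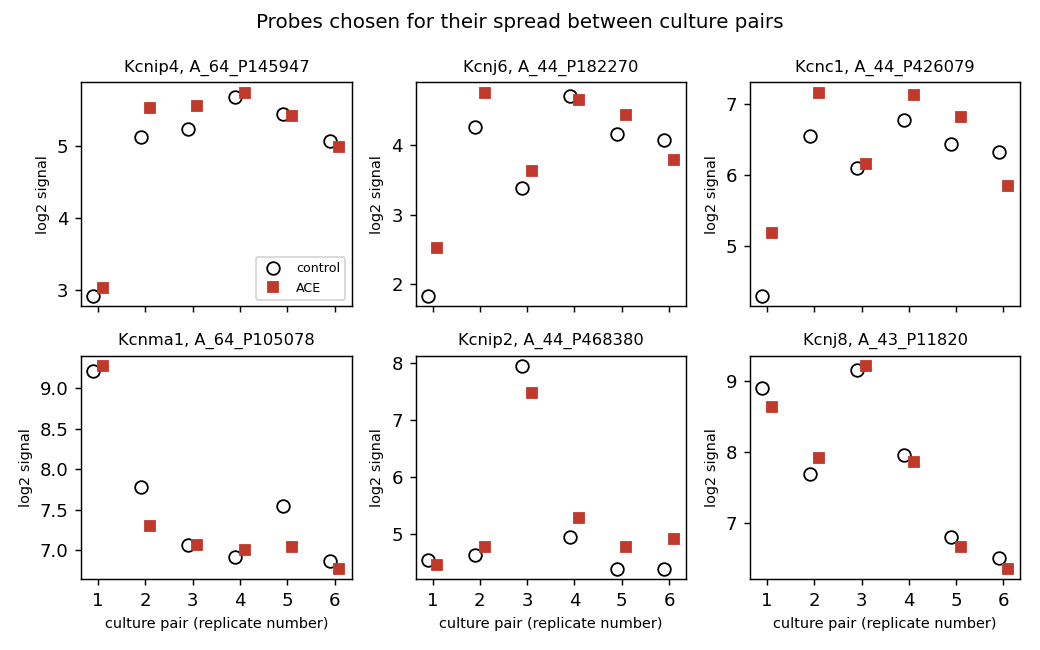
Log2 signal (y axes, a separate range in each panel) of 6 probes in control (open circles) and ACE cultures (red squares) by culture pair (x axis). Kcnip4, Kcnj6 and Kcnc1 are lowest and Kcnma1 probe A_64_P105078 highest in pair 1, and Kcnip2 is highest in pair 3.

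Genes that work with these channels were counted in the same fit. Of 18 partner genes, 17 were on the array with 17 tested probes, of which 2 were called higher and 3 lower at the unadjusted threshold (6.90% and 9.73% of all probes) and 0 after adjustment. The highest of these was Dlg4 (PSD-95, a scaffold that clusters Shaker-type channels), whose level averaged 6.08 ± 0.21 (SD over 6 arrays) without and 6.40 ± 0.31 with exposure, differing by 0.33 ± 0.07 (SE, adjusted p = 0.156) and higher values in 6 of 6 pairs. Cntn2, an axonal adhesion molecule that holds these channels beside the node of Ranvier, differed by 0.18 ± 0.06 and was likewise higher in 6 of 6 pairs. On the lower side were Lrrc26, a γ subunit of BK channels (-0.22 ± 0.03, adjusted p = 0.141), its relative Lrrc38 (probe A_42_P628098, the 1 probe of the gene that was tested, -0.09 ± 0.03) and Abcc8, the sulphonylurea receptor of ATP-sensitive channels (-0.08 ± 0.03), each lower in 6 of 6 pairs.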

How the data were processed

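Labelled RNA was hybridised to 1-colour Agilent rat arrays, and the authors deposited 12 Feature Extraction files (versions 11.0.1.1 and 11.5.1.1, per the file headers) with background-subtracted, linear intensity values, and a table of log2 values that they quantile-normalised and set relative to each probe's median. The deposited log2 values correlated with the values computed here at 0.997 or above on every array and served as an alternative. Intensities were log2-transformed, quantile-normalised and averaged over the spots of a probe, with outlier spots left out, so that 4 tested potassium channel probes had 5 pairs. Probes above the 20th percentile on at least 7 of 12 arrays with at least 4 pairs were tested with limma 3.58.1 (R 4.3.3), with the pair as a block and p-values adjusted over all probes by Benjamini-Hochberg. The replicate number marks the lot of cells, and arrays of 1 number deviated together (correlation 0.434 to 0.909, other numbers -0.433 to 0.384; over the potassium channel probes alone 0.595 to 0.910 and -0.580 to 0.637). Tests were checked on simulated data. Genes named in the text were those lower or higher in all 6 pairs with an unadjusted p under 0.05, the 3 highest and 3 lowest differences, 20 channels known from the cerebellum, and the remaining calls; a few of them are not reported here. The members, the roles, the named genes and the lists were chosen with earlier results of these data known. All 133 probes matched a RefSeq gene by accession or symbol, and 1 gene, Kcne1l, is now Kcne5. The number of arrays limits the precision.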

Additional observations from a re-analysis of the deposited data

Results flagged for a closer look

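In 68 groups of arrays (the 34 tested probes named, in control and in ACE), 6 values stood apart from the other arrays of their group by Dixon's test, which flags about 1 group in 20 by chance, and 5 of the 6 were on arrays of pair 1. Kcnip4 was lowest in control 1 (2.92, others 5.07 to 5.69) and in ACE 1 (3.02, others 4.98 to 5.75). Kcnc1 was lowest in control 1 (4.30, others 6.11 to 6.78). Kcnma1 probe A_64_P105078 was highest in ACE 1 (9.28, others 6.76 to 7.30), as was Kcna7 (5.62, others 4.40 to 4.81). Kcnf1 was lowest in control 3 (2.28, others 3.60 to 4.24). The causes were not tested.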

How the results depend on the processing

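After adjustment 0 potassium channel probes were called under every alternative run. Of all probes tested 0 passed too, except with the pair as a random block, where 5 of 23796 did. The 12 unadjusted calls became 4 with the exact signed-rank test and, with pairs 3, 4 and 5 alone (chosen after seeing the data), 4. They became 0 with no replicate block, where the exact unpaired rank-sum test also gave 0 in place of the 4 probes with 1 direction in all pairs. Leaving out 1 pair at a time gave 9 to 17 calls among 107 probes, where 11.8 to 17.5% of all probes were called. The 17 calls came without pair 4, where 14.0% of all probes were called. In these runs 6 to 12 probes had 1 direction in all remaining pairs (12 without pair 4, 10 without pair 1 and 9 without pair 3). Fewer pairs make 1 direction easier to reach: 31 of 104 probes had it over pairs 4, 5 and 6, scanned together, and 16 of 105 over pairs 3, 4 and 5. The share of all probes with 1 direction was counted only for the main run with all 6 pairs (11.6%). The 75th percentile shift gave 11 such probes and medians of -0.053 for voltage-gated pore subunits and -0.24 for silent subunits (the cause was not tested). Over all alternatives the silent subunits' median was -0.24 to -0.06 and that of the two-pore channels 0.03 to 0.11, and without 1 pair they were -0.16 to -0.11 and 0.07 to 0.10. Without 1 pair the medians were -0.00448 to 0.02 for voltage-gated pore subunits, -0.00887 to 0.05 for auxiliary subunits, -0.00112 to 0.09 for calcium- and sodium-activated pores and -0.06 to -0.04 for inward rectifiers. The 12 called probes lost the unadjusted threshold in 59 of 171 refits, and Kcnmb3 turned to 0.19 with the deposited values, while the 22 other tested probes fixed for naming gained it in 14 of 323. With the pair as a random block 12 were called, 9 of them shared with the fixed block, where 16.8% of all probes were called with the random block. With 6 pairs, no exact test of 1 probe can give a p under 0.0313, and probes near background have compressed differences after normexp correction.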
